A study of Mus musculus with 16 samples.

Results

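The genes described here are 2 xenobiotic receptors, their shared partner and 5 genes that they are known to control or that serve the enzymes they induce. Nr1i3 encodes the constitutive androstane receptor CAR, Nr1i2 the pregnane X receptor PXR and Rxra the retinoid X receptor alpha. Cyp2b9, Cyp2b10 and Cyp2b13 encode cytochrome P450 enzymes, Por the reductase that feeds them electrons and Alas1 the first enzyme of heme synthesis. They were chosen by name and matched through their Ensembl identifiers, with earlier results of these data known. All 8 of 8 were found in both count tables, which together held 26296 identifiers.

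The data are poly(A) RNA-seq of 16 mouse livers. All mice were 7 weeks old when they were put on food that is 60% fat by energy, stayed on it for 16 weeks and were fasted for 12 hours before the livers were taken. There were 4 groups of 4 libraries: male floxed and female floxed mice, which carry floxed alleles of Matr3, and male LKO and female LKO mice, which carry these alleles with Albumin-Cre and are labelled as liver-specific knockouts of matrin-3, which binds RNA in the nuclear matrix. The protein was not measured here. LKO mice were littermates of floxed mice per the labels, which do not say which animals shared a litter. Mice are numbered 1 to 8 within a sex, floxed 1 to 4 and LKO 5 to 8. All mice ate the high-fat diet, and no library came from a mouse given an activator of CAR or PXR. The albumin promoter drives Cre in hepatocytes, and which liver cells keep Matr3 was not measured here. In whole liver fewer cells of a type and less RNA per cell cannot be told apart.

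CAR and PXR are nuclear receptors of hepatocytes that sense drugs, bile acids and steroids. In the resting cell CAR is held in the cytoplasm by a complex with heat shock protein 90, and signalling from the epidermal growth factor receptor helps to keep it there. Once released it enters the nucleus, pairs with RXR alpha and binds DNA at pairs of AGGTCA-like motifs, as PXR does. Cyp2b10 is the textbook target of CAR in mouse liver and is strongly induced by phenobarbital, while Cyp2b9 and Cyp2b13 are known as female-biased genes under the control of growth hormone.

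The 3 Cyp2b genes lie on the plus strand of chromosome 7 (GRCm38, the mm10 build; GENCODE M21) within 313.0 kb: Cyp2b10 (ENSMUSG00000030483) from 25897620 to 25926624, Cyp2b13 (ENSMUSG00000040583) from 26061497 to 26096197 and Cyp2b9 (ENSMUSG00000040660) from 26173411 to 26210661. Their promoters are shown because Cyp2b9 and Cyp2b13 were higher in floxed females than in floxed males, by unlike amounts, and Cyp2b10 was lower. Each window runs from 250 bases before to 50 bases after the start site, 5′ to 3′ on the plus strand, from RefSeq on GRCm38.p6, at chr7:26173159-26173458 for Cyp2b9, chr7:26061245-26061544 for Cyp2b13 and chr7:25897408-25897707 for Cyp2b10. Capitals mark the receptor motif AGGTCA.
Cyp2b9: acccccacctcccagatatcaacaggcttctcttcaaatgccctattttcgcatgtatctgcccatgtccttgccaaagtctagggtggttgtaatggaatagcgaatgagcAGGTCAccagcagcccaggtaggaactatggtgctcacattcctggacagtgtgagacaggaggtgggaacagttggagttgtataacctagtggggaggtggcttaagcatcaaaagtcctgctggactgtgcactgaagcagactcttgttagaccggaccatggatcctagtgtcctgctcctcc
Cyp2b13: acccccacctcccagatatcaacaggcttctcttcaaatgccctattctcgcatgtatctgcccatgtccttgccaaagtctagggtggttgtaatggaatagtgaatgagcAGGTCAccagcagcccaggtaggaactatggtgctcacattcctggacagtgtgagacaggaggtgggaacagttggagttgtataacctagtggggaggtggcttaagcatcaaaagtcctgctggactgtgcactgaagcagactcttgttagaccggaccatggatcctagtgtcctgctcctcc
Cyp2b10: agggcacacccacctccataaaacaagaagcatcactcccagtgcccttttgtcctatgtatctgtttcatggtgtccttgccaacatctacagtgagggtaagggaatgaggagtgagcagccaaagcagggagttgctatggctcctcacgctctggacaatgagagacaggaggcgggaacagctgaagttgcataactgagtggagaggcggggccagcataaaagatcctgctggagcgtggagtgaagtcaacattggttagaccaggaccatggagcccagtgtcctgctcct

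The Cyp2b9 and Cyp2b13 windows were equal at 298 of 300 positions. Counted from 1 at the 5′ end of the window, with the Cyp2b9 base first, the differences were T48C and C104T. Both windows held AGGTCA from 138 to 133 bases before the start site. The Cyp2b10 window was 70.7% identical to each of the others and held none of the motifs searched. Sequence farther upstream was not searched, so sites outside these windows are not covered for any of the genes. Motifs were searched on both strands and allowed to overlap. Of 32851 RefSeq promoter windows of that length, 16.3% held AGGTCA and 14.0% held AGTTCA, 8.3% held the STAT-like TTCNNNGAA and 7.1% held GTTAAT, while 0.5% held CAAAGTCCA and 13.6% held TATAAA. Of the other members, an Rxra promoter held AGGTCA at 2 places and an Alas1 promoter held TTCNNNGAA. A match of letters is a description of the window and not a binding site.

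The coding sequences are shown at the loop that holds the heme iron, because reads of such near-copies can be shared in counting. The codon of the cysteine that binds the iron, codon 436 of 491, is in capitals, and the stretch runs from coding base 1285 to 1314 of the GENCODE M21 transcripts. For Cyp2b10 the transcript was chosen because another annotated transcript of the gene holds an insert inside this loop. The comparisons with Cyp2b10 hold for the chosen transcript only.
Cyp2b9: ttctccacaggaaagcgcattTGTcttggt
Cyp2b13: ttctccacaggaaagcgcattTGTcttggt
Cyp2b10: ttctcaacaggaaagcgcattTGTcttggt
Cyp2b9 and Cyp2b13 did not differ in these 30 bases, and Cyp2b10 differed from each at 1. Over the 1476 coding bases Cyp2b9 was 92.7% identical to Cyp2b13 and 87.7% to Cyp2b10, and Cyp2b10 was 88.7% identical to Cyp2b13. Of all 50-base stretches of the Cyp2b9 transcript 10.84% were also in Cyp2b13, against 1.18% of 100-base stretches and 0.0% of 150-base stretches. How the authors assigned reads that match both genes is not given in the sources used here, so the split between Cyp2b9 and Cyp2b13 carries that uncertainty.

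The libraries held 30495505 to 36496193 counts. Levels below are CPM, counts scaled to library size over all 16 libraries together, with means ± SD over 4 libraries. Matr3 was 57.8 ± 3.72 CPM in male floxed and 35.4 ± 1.55 in male LKO livers (61.3% of floxed), and 58.1 ± 4.95 and 38.1 ± 1.36 CPM in females (65.5%), with no overlap in either sex (exact permutation p = 0.0286 in each, two-sided, the smallest that 70 regroupings allow). Xist was at least 411.3 CPM in each female library and at most 0.19 CPM in each male library. Of the markers of hepatocytes and 7 other cell types found in both tables, none was at 0 in any group. Floxed males 1 and 2 carry mouse numbers apart from those of all other mice in the labels, and female floxed 4 and female LKO 7 were known from an earlier analysis to lie nearest the other genotype, so results are also given without each pair where that matters.

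**Figure D1:**
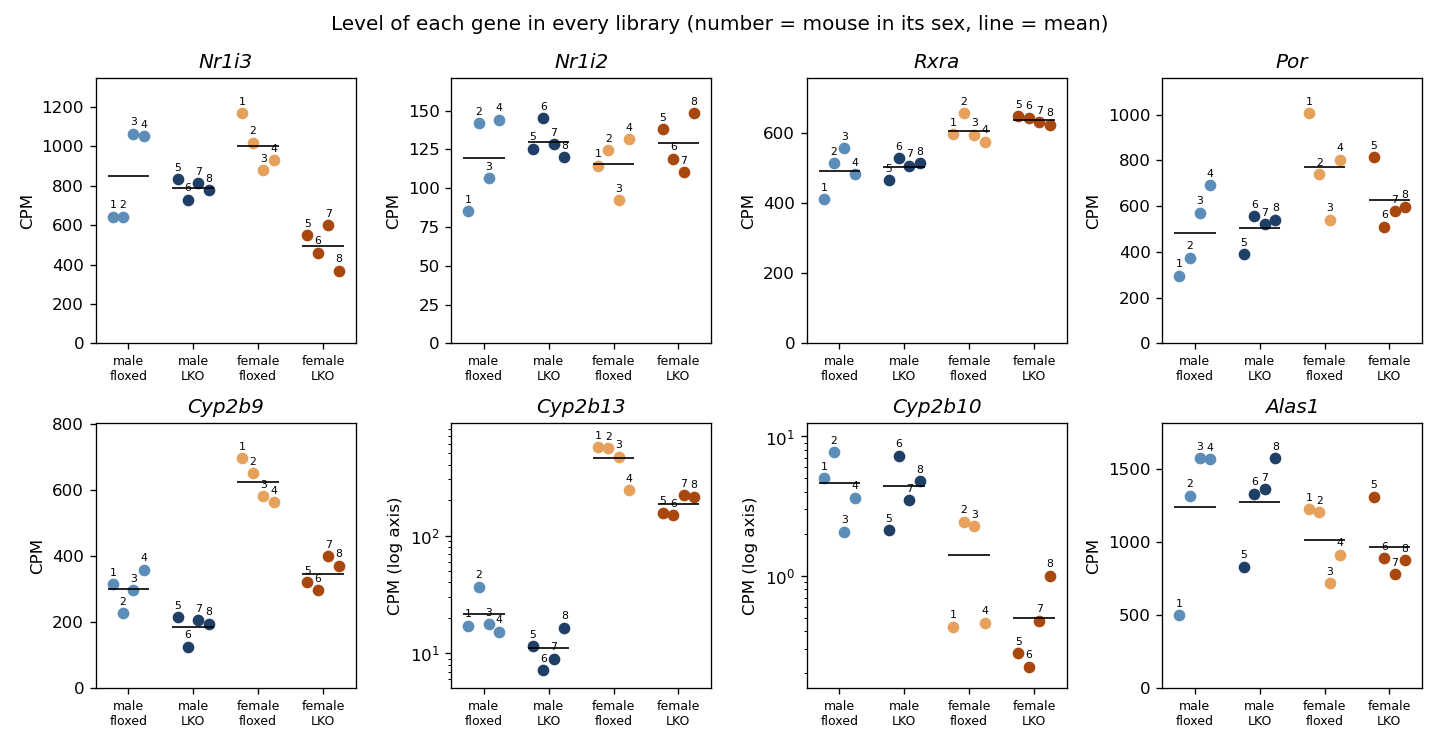
CPM of the 8 genes in every library, by group. Points are libraries, numbers are mice and lines are group means, and the axes of Cyp2b13 and Cyp2b10 are logarithmic. Female LKO livers are the lowest group for Nr1i3 (369.4 to 601.3 CPM), and both female groups are far above the males for Cyp2b13.

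Nr1i3, Cyp2b9 and Cyp2b13 were the members called lower in LKO females, and no member was called higher in LKO livers of either sex. In females edgeR called 3 of the 8 lower, where it called 4.85% of 15432 genes lower and 9.29% in either direction. There 4 members had an unadjusted p under 0.05, these 3 and Cyp2b10 (log2 fold change -1.49). In males it called 0 of 8, where 1.04% of 15355 genes were called, with 2 members at an unadjusted p under 0.05 (Cyp2b9 and Cyp2b13), 1 called by DESeq2 and 0 by limma-voom. The effect over both sexes had the same 3 lower (4.5% of 16126 genes lower, 8.55% in either direction). The difference of the effects had 1 lower, Nr1i3 (2.45% lower, 4.42% in either direction). Floxed females against floxed males had 4 higher, Rxra, Cyp2b9, Cyp2b13 and Por, and 1 lower, Cyp2b10 (11.3% of genes higher, 11.6% lower, 22.9% in either direction).

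Of the receptor transcripts, only that of CAR was called changed in LKO livers. In LKO females Nr1i3 fell to 49.6% of the floxed mean, while the 95% intervals of Nr1i2 and Rxra spanned 0 in both sexes. Nr1i3 (ENSMUSG00000005677; chromosome 1, 171213970 to 171220701, plus strand) measured 1169, 1019, 877.5 and 930.1 CPM in floxed females 1 to 4 and 549.5, 460.2, 601.3 and 369.4 CPM in LKO females 5 to 8. The highest LKO female lay below the lowest floxed female. Its log2 fold change was -1.01 (SE 0.16, 95% interval -1.37 to -0.66, edgeR adjusted p = 0.00796), and it was called without each of the 8 libraries in turn, with values from -1.12 to -0.90. Without female floxed 4 and LKO 7 the female values were -1.15 for Nr1i3, -0.96 for Cyp2b9 and -1.60 for Cyp2b13. As this pair was picked for lying nearest the other genotype, its omission widens the difference by construction and does not bear on the stability of the calls.

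In males Nr1i3 measured 642.4, 642.8, 1064 and 1051 CPM in floxed mice 1 to 4 and 834.2, 729.1, 813.6 and 779 CPM in LKO mice 5 to 8. The floxed males formed 2 pairs, 1 below all LKO males and 1 above them, so that the groups overlapped. Floxed males 1 and 2 are the low pair. The log2 fold change was -0.11 (SE 0.17, 95% interval -0.48 to 0.27, edgeR adjusted p = 0.869). Without floxed males 1 and 2 it was -0.42 (edgeR adjusted p = 0.0272), so the absence of a call in males depends on these libraries. As they are the low pair, their omission lowers the fold change by construction and leaves 2 floxed males. It does not show which value is the better one.

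The sexes differed in this effect only at the edge of the threshold. The female effect on Nr1i3 minus the male effect was -0.91 on the log2 scale (SE 0.25, 95% interval -1.43 to -0.38, edgeR adjusted p = 0.0496). Without floxed males 1 and 2, the low pair in Nr1i3, it was -0.59 (edgeR adjusted p = 0.173), a shift that is likewise by construction. With each library left out in turn it was called in 4 of 16 fits, those without male floxed 3, male floxed 4, female floxed 4 or female LKO 7, and in the other 12 the adjusted p lay between 0.0512 and 0.102. Over both sexes the mean effect was -0.56 (SE 0.12, edgeR adjusted p = 0.0127), called in all 16 such fits.

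Of the 4 groups, female floxed livers had the most Nr1i3 (998.9 ± 127.6 CPM), then male floxed (850 ± 239.5), male LKO (789.0 ± 45.9) and female LKO (495.1 ± 102.1). The first 3 overlapped with their neighbours in this order, and the difference between floxed females and floxed males was not called (log2 0.23, 95% interval -0.14 to 0.61, edgeR adjusted p = 0.367). Each female LKO library was below each male LKO library.

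The transcripts of PXR and RXR alpha were not called in either sex. Nr1i2 (ENSMUSG00000022809; chromosome 16, 38248323 to 38294824, minus strand) lay between 85.3 and 148.5 CPM in all 16 libraries. Its log2 fold change was 0.12 in males (95% interval -0.21 to 0.45, edgeR adjusted p = 0.823) and 0.15 in females (-0.14 to 0.44, adjusted p = 0.482). Group means ran from 115.8 CPM in female floxed to 129.8 CPM in male LKO livers, and all 4 groups overlapped.

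Rxra (ENSMUSG00000015846; chromosome 2, 27676440 to 27762957, plus strand) had a log2 fold change of 0.04 in males (95% interval -0.16 to 0.24, edgeR adjusted p = 0.925) and 0.07 in females (-0.12 to 0.26, adjusted p = 0.628). It measured 412.1, 513.6, 556.3 and 481.8 CPM in floxed males and 595.8, 657.1, 595.1 and 575.3 CPM in floxed females. All floxed females were above all floxed males, by 0.30 on the log2 scale (SE 0.08, edgeR adjusted p = 0.0162). That call was lost without male floxed 1 (adjusted p = 0.0514) or female floxed 2 (0.0559), and without male floxed 1 and 2 together (log2 0.22).

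Per kilobase of annotated exon, a rough scale for comparing genes, Nr1i3 had a mean of 226.3 CPM per kb in floxed females, Rxra 110.9 and Nr1i2 45.3. The length is the union of the exons of all annotated transcripts, for Nr1i3 4414 bases of a gene of 6732. It can exceed the length of any single transcript, to an unlike degree between genes. In LKO females Nr1i3 had 112.2, near the 116.6 CPM per kb of Rxra. CAR was thus the most abundant of the 3 by this measure in floxed livers of both sexes, with 192.6 CPM per kb in males.

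**Figure D2:**
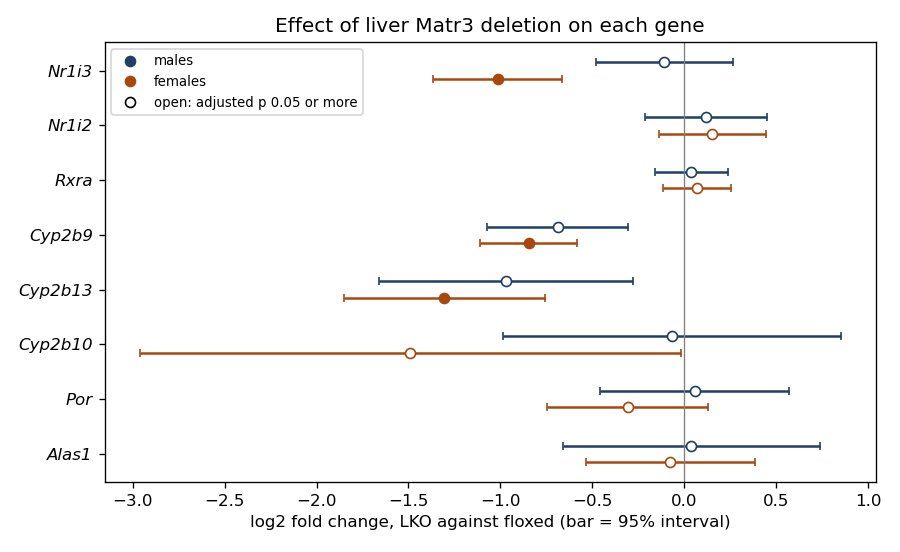
Log2 fold change of LKO against floxed livers for each gene in males and females, with 95% intervals from edgeR. Filled points have an adjusted p under 0.05: Nr1i3, Cyp2b9 and Cyp2b13 in females and none in males.

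Cyp2b9 was lower in every LKO liver than in every floxed liver of the same sex. It measured 696.3, 650.3, 580.2 and 563.7 CPM in floxed females and 320.7, 295.9, 399.4 and 371.3 CPM in LKO females. In males it measured 315.3, 227.8, 296.9 and 358.3 CPM in floxed and 215.3, 126.1, 206.7 and 195.2 CPM in LKO livers. The absence of overlap was shared, in the lower direction, by 4.14% of all genes in males and 7.91% in females.

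The log2 fold change of Cyp2b9 was -0.85 in females (SE 0.12, edgeR adjusted p = 0.0059), called without each of the 8 libraries in turn. In males it was -0.69 (SE 0.17, 95% interval -1.07 to -0.30) and missed the threshold over all genes with edgeR (adjusted p = 0.111), passing it with DESeq2 (adjusted p = 0.00471). The effects of the sexes differed by -0.16 (95% interval -0.63 to 0.32, edgeR adjusted p = 0.752). Over both sexes Cyp2b9 fell by 0.77 on the log2 scale (SE 0.11, edgeR adjusted p = 0.000896).

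Cyp2b13 followed, from a level that differed far more by sex. In females it measured 561.9, 552.9, 468.8 and 244.1 CPM in floxed and 156.6, 149.6, 219.5 and 215.0 CPM in LKO livers. Floxed female 4 lay near the LKO range, but the groups did not overlap. The log2 fold change was -1.30 (SE 0.25, edgeR adjusted p = 0.0147), and it missed the threshold without floxed female 1 (-1.19, adjusted p = 0.0509).

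In males Cyp2b13 measured 17.2, 36.8, 17.6 and 15.3 CPM in floxed and 11.6, 7.19, 9.03 and 16.5 CPM in LKO livers. Floxed male 2 stood apart, and LKO male 8 reached into the floxed range. The log2 fold change was -0.97 (SE 0.31, 95% interval -1.66 to -0.28, edgeR adjusted p = 0.212), and -0.59 without floxed male 2. The effects of the sexes differed by -0.33 (95% interval -1.25 to 0.59, edgeR adjusted p = 0.719), and over both sexes Cyp2b13 fell by 1.14 (SE 0.22, edgeR adjusted p = 0.00581).

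Cyp2b10 was scarce in every library, as 186 counts in all in the 4 floxed females and 65 in the 4 LKO females. It measured 0.432, 2.45, 2.27 and 0.462 CPM in floxed females and 0.278, 0.223, 0.477 and 1.01 CPM in LKO females, which overlapped. Males had 5.01, 7.75, 2.07 and 3.64 CPM in floxed and 2.12, 7.28, 3.50 and 4.76 CPM in LKO livers. The log2 fold change was -1.49 in females (95% interval -2.96 to -0.02, edgeR adjusted p = 0.176) and -0.07 in males (-0.98 to 0.85, adjusted p = 0.977). In each sex the interval included a change as large as that of Cyp2b13.

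In floxed livers the Cyp2b genes differed by sex, in opposite directions. Cyp2b13 was higher in floxed females than in floxed males (456.9 ± 148.0 against 21.7 ± 10.1 CPM; log2 4.39, SE 0.35, edgeR adjusted p = 3.17e-07) and Cyp2b9 was 2.08-fold higher (log2 1.06, SE 0.16, edgeR adjusted p = 0.000273), both without overlap, which 11.6% of all genes showed in that direction. Cyp2b10 was lower in females (-1.71, SE 0.55, edgeR adjusted p = 0.0348) with groups that overlapped. The Cyp2b10 call was lost without male floxed 1 (adjusted p = 0.0584), male floxed 2 (0.115), female floxed 1 (0.0926) or female floxed 4 (0.0892), with robust dispersion (0.0545), and without male floxed 1 and 2 (-1.02) or female floxed 4 and LKO 7 (-1.42).

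Per kilobase, floxed females had 331.9 CPM per kb of Cyp2b9, 243.7 of Cyp2b13 and 0.665 of Cyp2b10. Floxed males had 159.7, 11.6 and 2.19. LKO females had 184.9 of Cyp2b9 and 98.8 of Cyp2b13, and in both genes the order was female floxed, female LKO, male floxed and male LKO. The ranges of female LKO and male floxed livers overlapped for Cyp2b9 and not for Cyp2b13.

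The 3 genes together made 1081 ± 202.2 CPM in floxed females, 532.5 ± 83.8 in LKO females, 325.9 ± 43.7 in floxed males and 201.3 ± 40.8 in LKO males. Cyp2b13 made up 44.7%, 46.0%, 44.7% and 30.2% of the counts of Cyp2b9 and Cyp2b13 in floxed females 1 to 4, and between 32.8% and 36.7% in LKO females. Floxed female 4 thus had a lower share than any LKO female. In males the share was 4.09% to 7.80% in 7 libraries and 13.9% in floxed male 2 (exact 95% interval 13.2% to 14.7%, counting error only).

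**Figure D3:**
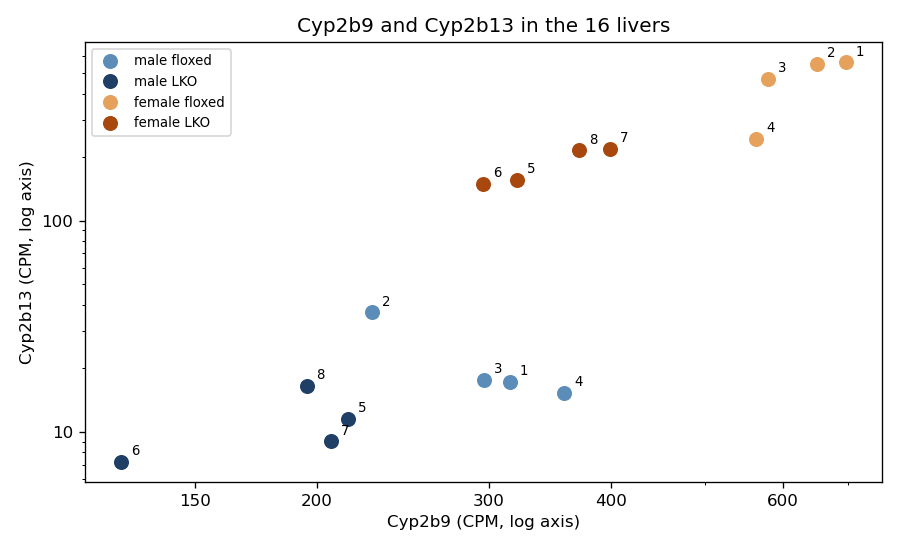
CPM of Cyp2b13 against Cyp2b9 in the 16 livers on logarithmic axes, numbered by mouse. Females lie above all males in Cyp2b13, LKO females lie below floxed females on both axes, and floxed male 2 (36.8 CPM) lies above the other males in Cyp2b13.

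Other annotated genes between Cyp2b10 and Cyp2b9 gave little to compare between genotypes. Besides the members, only the pseudogene Cyp2b27-ps had enough counts to be tested in females, at -0.14 on the log2 scale (SE 0.30, edgeR adjusted p = 0.799). It was higher in floxed females than in floxed males (log2 2.185, SE 0.406, edgeR adjusted p = 0.00128), on only 60 and 13 counts per group.

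Por and Alas1, which supply electrons and heme to P450 enzymes, were not called in either sex. Por (ENSMUSG00000005514; chromosome 5, 135670033 to 135735326, plus strand) measured 1007, 738.6, 541.4 and 802.6 CPM in floxed females and 815.2, 509.7, 577.0 and 596.9 CPM in LKO females. In males it measured 295.9, 375.3, 570.9 and 690.9 CPM in floxed and 390.5, 556.7, 522.3 and 541.3 CPM in LKO livers. The groups overlapped in both sexes. Its log2 fold change was -0.31 in females (95% interval -0.75 to 0.13, edgeR adjusted p = 0.339) and 0.06 in males (-0.46 to 0.57, adjusted p = 0.963).

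Floxed females had more Por than floxed males by 0.68 (SE 0.24, edgeR adjusted p = 0.0499), with overlapping groups. This call was kept in 3 of 16 fits with 1 library left out, those without male floxed 4, female floxed 3 or female LKO 5, and was lost without male floxed 1 and 2 (0.29), with median-of-ratios scaling (adjusted p = 0.0516), without a filter (0.0564) and with robust dispersion (0.0646).

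Alas1 (ENSMUSG00000032786; chromosome 9, 106233455 to 106248654, minus strand) had 1226, 1208, 719.2 and 914.5 CPM in floxed females and 1312, 891.3, 780.5 and 879.3 CPM in LKO females. Males had 500.7, 1320, 1577 and 1569 CPM in floxed and 833, 1332, 1362 and 1575 CPM in LKO livers. Floxed male 1 was the lowest of all 16, and the groups overlapped. The log2 fold change was -0.08 in females (95% interval -0.53 to 0.38, edgeR adjusted p = 0.844) and 0.04 in males (-0.66 to 0.74, adjusted p = 0.981).

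The pair of floxed males that was low in Nr1i3 was also low in Por and, mainly through floxed male 1, in Alas1. Floxed males 1 and 2 had means of 335.6 CPM of Por and 910.4 CPM of Alas1, against 630.9 and 1573 CPM in floxed males 3 and 4, without overlap between the pairs, though the 1320 CPM of Alas1 in floxed male 2 lay within the LKO range. The same pair was higher in Cyp2b10 (6.38 against 2.86 CPM, without overlap) and had a higher mean of Cyp2b13 (27.0 against 16.5 CPM). With the first pair left out, the male log2 fold changes became -0.33 for Por and -0.30 for Alas1, a shift that omitting the lower pair gives by construction.

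Across the 16 libraries, the genes with the pattern of log2 CPM most like that of Nr1i3 were Igfbp5 (r = 0.961), Tk1 (0.930) and Dhrs7 (0.929). After subtraction of the 4 group means the correlations were 0.912, 0.776 and 0.795, so that they also varied with Nr1i3 among mice of a group. Nr1i2 was most like Lpin1 (0.897), Map3k6 (0.886) and Lpin2 (0.878), with 0.904, 0.896 and 0.924 within groups.

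For Cyp2b13 the nearest were Cyp2c40 (0.959), Emp2 (0.957) and Cyp2c69 (0.955), but within groups these fell to 0.234, 0.565 and -0.10, so the likeness of the P450 genes lay between groups. Cyp2b9 was most like H2-T23 (0.957), Prpf40b (0.945) and Cbx7 (0.926), with 0.614, 0.636 and 0.556 within groups. Cyp2b10 was most like Ppm1b (0.948), Dnajb4 (0.939) and Uhmk1 (0.933), and Rxra most like Gucy2c (0.929), Sart3 (0.921) and Adgrl3 (0.913). For Por the nearest were Hspd1 (0.917), Hspe1 (0.901) and Epop (0.875), of which the first 2 encode the mitochondrial chaperonins, and for Alas1 they were Dis3l2 (0.818), Galnt11 (0.808) and Coq10b (0.771). Cyp2b9 and Cyp2b13 had r = 0.859 over the 16 libraries and 0.160 within groups. Within groups Por and Alas1 had r = 0.839, Rxra and Alas1 0.805, and Nr1i3 and Por 0.678. With the Cyp2b genes, Nr1i3 had r = 0.447 (Cyp2b9), -0.155 (Cyp2b13) and -0.565 (Cyp2b10) within groups. The split of the floxed males in Nr1i3, Por and Alas1 described above enters these values. All of these share libraries and depth and were chosen from many, and they are given as descriptions.

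Other genes known as targets of CAR or PXR were mostly lower in LKO females. Of 40 tested, edgeR called 21 lower and 2 higher, where it called 4.85% of all genes lower and 9.29% in either direction. The median log2 fold change of the list was -0.89 where that of all genes was 0.00. The 4 with the smallest p were Sult2a1, a sulfotransferase of steroids and bile acids (-5.02, adjusted p = 0.000899), Ces1d, a carboxylesterase (-2.39, adjusted p = 0.00635), Abcc2, the canalicular export pump MRP2 (-0.71, adjusted p = 0.00823), and Cyp2a5, the coumarin hydroxylase (-3.31, adjusted p = 0.0118). Sult2a1 went from 280.5 ± 79.4 to 8.65 ± 4.94 CPM and Cyp2a5 from 1571 ± 566 to 159.1 ± 142.1 CPM. The 2 that rose were Cyp3a13 (0.41) and Gadd45b (0.67). None was called higher without floxed female 1, floxed female 2 or LKO female 6, or with library totals for scaling.

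The number called lower depended on single mice: it was 6 without floxed female 1, 8 without floxed female 2, 8 without LKO female 5, 11 without LKO female 6 and 11 without LKO female 8, and 28 without LKO female 7. The summed level of the list was 11940 to 15970 CPM in floxed and 5930 to 8713 CPM in LKO females, without overlap.

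In males 37 of these genes were tested, with 1 called higher and 2 lower and a median of 0.01. Of all genes 1.04% were called in males in either direction. Cyp2a4, a steroid hydroxylase, rose by 2.25 (adjusted p = 0.0176), from 15.5 ± 9.30 to 73.9 ± 13.5 CPM. Abcc2 fell by 0.56 (adjusted p = 0.0199) and Cyp2c54 by 1.88 (adjusted p = 0.0268). With DESeq2 3 were higher and 4 lower, and without male floxed 1 and 2 the counts were 3 and 1. None of the list was called higher without male floxed 3, LKO 5 or LKO 6, and none lower without LKO 5, LKO 7 or LKO 8. With robust dispersion 0 were higher and 1 lower. Cyp2a4 and Cyp2a5 are near-copies, as are Cyp2c54 and its neighbours, and reads can be shared between them. The summed level was 15080 to 21520 CPM in floxed and 15310 to 22190 CPM in LKO males.

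Abcc2 was the gene of this list with the smallest p over both sexes (-0.63, SE 0.07, edgeR adjusted p = 8.94e-05). In the test of the difference, edgeR called the effect lower in females than in males for 2.45% of all genes, and 4.42% in either direction. Of 41 list genes it called 11 lower and 0 higher. Those with the smallest p were Ces1d (-2.75, adjusted p = 0.00475), Cyp2a4 (-3.74, adjusted p = 0.00617), Abcb1a, which encodes a P-glycoprotein (-1.41, adjusted p = 0.0123), and Abcc3, the basolateral pump MRP3 (-0.88, adjusted p = 0.0145). The count was 6 without male floxed 1 and 2, and 7 without male LKO 8, female floxed 1, female floxed 2 or female LKO 5, and 20 without female LKO 7.

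**Figure D4:**
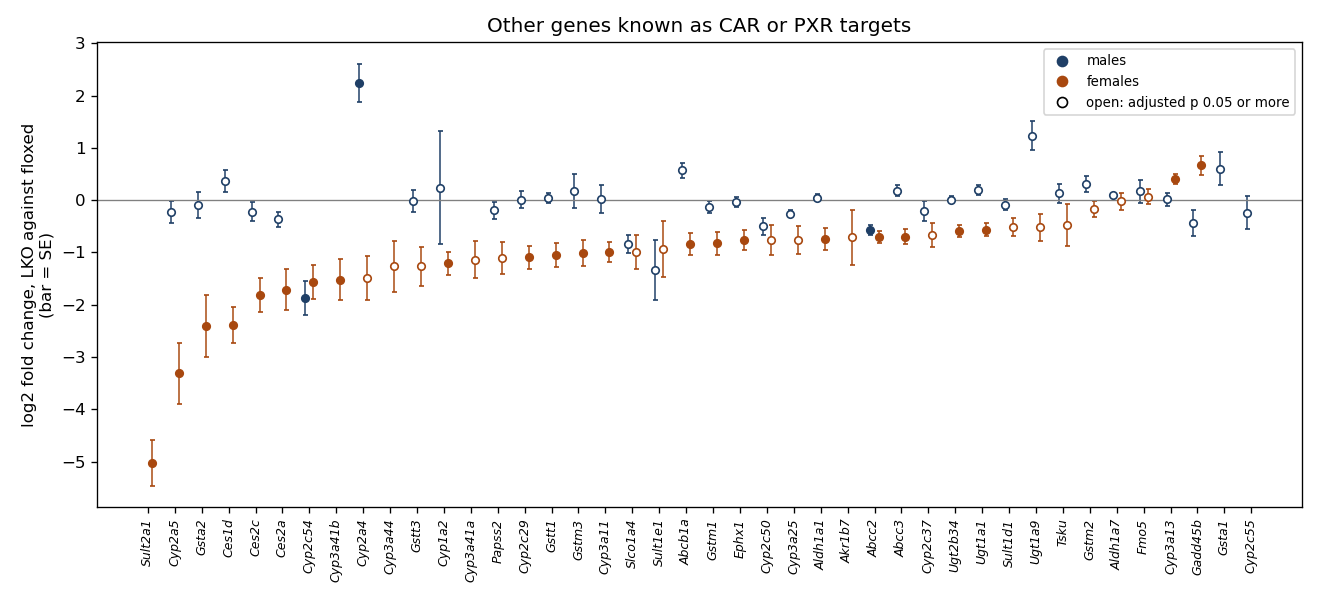
Log2 fold change of LKO against floxed livers, with SE, for genes other than the members known as targets of CAR or PXR, ordered by the female value. Filled points have an adjusted p under 0.05: in females 21 of 40 genes below 0 and 2 above, and in males 2 of 37 below and 1 above.

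Genes that hold, pair with or assist CAR and PXR were called at about the share of all genes. Of 29, edgeR called 3 higher and 0 lower in females, where 9.29% of all genes were called in either direction: Egfr, the epidermal growth factor receptor (1.97, SE 0.23, adjusted p = 0.00367), Hnf4a, a hepatocyte nuclear receptor (0.52, adjusted p = 0.023), and Ppargc1a, the coactivator PGC-1 alpha (0.94, adjusted p = 0.0463). Egfr went from 155.9 ± 40.1 CPM in floxed to 610.3 ± 170.0 CPM in LKO females, without overlap, and was 114.3 ± 35.9 and 110.2 ± 50.5 CPM in males. Its effect differed between the sexes by 2.02 (SE 0.42, edgeR adjusted p = 0.0144). In males 0 of 29 were called by edgeR, DESeq2 or limma-voom, and 2 had an unadjusted p under 0.05.

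Of 20 other genes of heme synthesis and breakdown, edgeR called 2 lower in LKO females, a share near that of all genes (9.29% in either direction, 4.85% lower). They were Alad, the second enzyme of the pathway (-0.55, adjusted p = 0.015), and Tmem14c, a mitochondrial protein needed for heme synthesis (-0.38, adjusted p = 0.0209). None was called in males by edgeR, DESeq2 or limma-voom, and 1 had an unadjusted p under 0.05. Of 11 other genes of electron transfer and related functions, not all of them microsomal, edgeR called 3 lower in LKO females, beside 4.85% of all genes. They were Cyb5b, a cytochrome b5 (-0.78, adjusted p = 0.00535), Pgrmc1, a heme-binding partner of P450 enzymes (-0.50, adjusted p = 0.0285), and Ephx1, microsomal epoxide hydrolase (-0.77, adjusted p = 0.0359). Ephx1 is also in the list of CAR and PXR targets and was counted there too. In males 1 of the 11 was called, beside 1.04% of all genes. It was Cyb5r3, a cytochrome b5 reductase, which rose by 0.32 (adjusted p = 0.043).

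Regulators of sex-biased liver genes were examined because Cyp2b9 and Cyp2b13 belong to the female-biased class. In LKO females edgeR called Prlr, the prolactin receptor (-0.57, adjusted p = 0.0267), and Ghr, the growth hormone receptor (-0.59, adjusted p = 0.0322), lower. They belong to a list of 11 genes, most of which were not called and 0 of which were called higher. Of all genes 4.85% were called lower there and 9.29% in either direction. Cux2, a female-specific repressor, had 47.4 ± 23.1 CPM in floxed and 29.8 ± 25.9 CPM in LKO females, which overlapped, and at most 1.07 CPM in any male. Neither Prlr nor Ghr was called in males by edgeR.

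Other signals moved with the genotype in the same female livers. Of 20 acute phase genes, edgeR called 17 higher in LKO females (median log2 fold change 1.34), where it called 9.29% of all genes in either direction. The summed level of the 20 was 24960 to 40780 CPM in floxed and 67890 to 149100 CPM in LKO females. In males 0 were called by edgeR or limma-voom and 1 by DESeq2, with 5 at an unadjusted p under 0.05, and sums of 18370 to 24390 and 18040 to 20660 CPM. Of 10 periportal hepatocyte genes 4 were higher in LKO females and 0 lower, and of 11 pericentral genes, the zone where CAR targets are known to be highest, 1 was lower and 0 higher, a share near the 9.29% of all genes called. The part of these in the fall of Nr1i3, Cyp2b9, Cyp2b13 and the target list was not tested.

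Markers of some cell types moved as well, in females by the edgeR calls. In males edgeR called 0 markers of any cell type. The counts called in LKO females stand beside 4.85% of all genes called lower there and 9.29% in either direction. The 8 hepatocyte markers summed to 63930 to 71400 CPM in floxed and 46340 to 60940 CPM in LKO females, with 2 called higher and 2 lower. Of 8 markers of sinusoidal endothelium 5 were lower in LKO females, with sums of 332.9 to 354.8 and 239.3 to 301.4 CPM. Of 8 stellate markers 2 were lower, with sums of 352.5 to 433.5 and 322.1 to 350.3 CPM, and of 6 cholangiocyte markers tested 1 was lower, with sums of 50.02 to 66.2 and 38.4 to 51.5 CPM. In LKO females 0 of 8 Kupffer and macrophage, 0 of 6 neutrophil and 0 of 8 T and B cell markers were called. Their median log2 fold changes were 0.33, 1.29 and -0.23. In males the 6 adipocyte markers found in both tables summed to 47.4 to 77.2 CPM in floxed and 128.1 to 152.8 CPM in LKO livers. Of the 4 that could be tested, edgeR called 0, DESeq2 3 and limma-voom 1, with 4 at an unadjusted p under 0.05. The part of cell type markers in the results was not tested.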

How the data were processed

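The authors deposited 1 table of whole-number counts per gene for each sex, made from directional poly(A) libraries per the labels' protocols, on build mm10 per the submitters' processing notes. Which aligner and counting program were used, and with which strand setting, is not given in the sources used here. Male and female tables held 24623 and 24840 Ensembl identifiers, 23167 of them shared. Groups came from the labels. Symbols and coordinates came from GENCODE M21 and promoters from RefSeq (GRCm38.p6), in which all 8 members had an entry.

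Each sex was tested alone in edgeR 4.0.16 (R 4.3.3): filterByExpr at a minimum count of 10 and a minimum total of 15, TMM scaling and a two-sided quasi-likelihood F-test. Differences between sexes and the effect over both came from a fit of all 16 libraries. Calls are at a p under 0.05 after Benjamini-Hochberg adjustment over all genes. Likeness was the Pearson r of log2 CPM with a prior count of 2. The steps were tested on simulated data. Within a group, no 2 libraries agreed within sampling noise.

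The members and the gene lists were chosen with earlier results of these data known. All 8 members are described. Of each list up to 4 genes with the smallest p are named, and of likeness the 3 highest r, leaving out predicted and clone-named models. A result that this rule would name is not reported here. Other genes named, Cyp3a13, Gadd45b, Cux2 and Cyp2b27-ps, were chosen after their values were seen. Alternatives were DESeq2 1.42.0, limma-voom (limma 3.58.1), other scalings and filters, robust dispersion, the 16-library fit, a block for the mouse number and omission of libraries. The labels number the mice but do not name their litters or cages, so p-values measure the spread between these mice.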

Additional observations from a re-analysis of the deposited data

Results flagged for a closer look

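In groups of 4, a library was singled out where its gap to the nearest other, as a share of the range of the group, exceeded Dixon's 95% limit. This was looked for in 44 groups of values, and chance gives it in about 1 in 20. Male floxed 2 was far above the other floxed males in Cyp2b13 (36.8 CPM, gap 0.891 of the range) and in the share of Cyp2b13 among the counts of Cyp2b9 and Cyp2b13 (13.9%, gap 0.846). Male LKO 6 was the lowest of its group in the sum of the 3 Cyp2b genes (140.6 CPM, gap 0.859). Female floxed 4 had the lowest Cyp2b13 share of the floxed females (30.2%, gap 0.918), and its acute phase sum, 40780 CPM, was the highest of the floxed females. The effect of the deletion on Nr1i3 differed between the sexes by -0.91 on the log2 scale in the test of the difference itself. That result lay at the edge of the threshold (edgeR adjusted p = 0.0496). It was called in 4 of 16 fits with 1 library left out.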

How the results depend on the processing

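Nr1i3 and Cyp2b9 stayed called lower in females, and Nr1i3, Cyp2b9 and Cyp2b13 over both sexes, under each alternative run, of which the omission of female floxed 4 and LKO 7 widens the female difference by construction. The count of all genes called moved most. In males it was 524 with DESeq2 and 97 in the 16-library fit. In females it was 2427 with DESeq2, 2854 in the 16-library fit and 3028 without female floxed 4 and LKO 7. For the difference of effects it was 1353 with DESeq2, 2030 without female floxed 4 and LKO 7, and 243 without male floxed 1 and 2, and over both sexes 2902 without female floxed 4 and LKO 7. The members called lower in males became 1 with DESeq2 (Cyp2b9) and 1 without male floxed 1 and 2 (Nr1i3, in which these were the low pair of floxed males). For the difference of effects they became 0 with median-of-ratios scaling (Nr1i3 adjusted p = 0.0511) and 0 without male floxed 1 and 2. In floxed females against males 0 were lower with robust dispersion, without female floxed 4 and LKO 7, and without male floxed 1 and 2, where 2 were higher. The cause was not tested.

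With single libraries left out, all genes called ranged from 69 to 179 in males, 396 to 2300 in females, 407 to 1435 for the difference of effects, 2874 to 3907 for floxed females against males and 788 to 2252 over both sexes. Members called lower ranged from 2 to 3 in females, 0 to 1 for the difference of effects and 0 to 1 in floxed females against males, where those higher ranged from 2 to 4.

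Signs changed only for members that were not called. Without male floxed 1 and 2 the male values were -0.045 for Rxra, 0.63 for Cyp2b10, -0.33 for Por and -0.30 for Alas1, the difference of effects was 0.018 for Por and 0.22 for Alas1, and floxed females against males was -0.082 for Nr1i3. Library totals gave -0.0099 for Rxra in females, -0.047 for Nr1i2 and -0.047 for Rxra in the difference of effects and 0.033 for Nr1i2 between floxed sexes, where upper quartile scaling gave 0.00087. Over both sexes Alas1 was 0.032 with limma-voom and 0.0093 without female floxed 4 and LKO 7. With single libraries left out, male values ranged from -0.22 to 0.021 for Nr1i3, -0.012 to 0.22 for Nr1i2, -0.038 to 0.11 for Rxra, -0.41 to 0.30 for Cyp2b10, -0.12 to 0.28 for Por and -0.22 to 0.20 for Alas1, and the female value of Alas1 from -0.26 to 0.025. The difference of effects ranged from -0.066 to 0.17 for Nr1i2, -0.032 to 0.11 for Rxra and -0.30 to 0.15 for Alas1, floxed females against males from -0.18 to 0.057 for Nr1i2, and the effect over both sexes from -0.15 to 0.062 for Alas1.

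The mouse number was also used as a replicate block across sexes. Libraries with the same number did not deviate together (r from -0.12 to 0.13 over 8 numbers, and 2 of 8 matched their own number best). With the block 468 genes were called for the difference of effects and 0 members, with Nr1i3 at -0.96 (adjusted p = 0.0827).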
